A study of Mus musculus with 6 samples.

Results

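The genes described here are 10 core components of transforming growth factor beta (TGF-beta) signalling in the palatal shelves of mouse embryos at E14.5. They are the ligands Tgfb1, Tgfb2 and Tgfb3, the receptors Tgfbr1, Tgfbr2 and Tgfbr3, and the intracellular mediators Smad2, Smad3, Smad4 and Smad7. They were taken as a list of gene symbols, by role in the pathway, and all 10 were found among the 55631 gene IDs of the expression table. All 10 passed the filter on low values, which kept 14714 genes whose mean over the libraries reached 1 FPKM (fragments relative to gene length and to library size).

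The KO group held 3 libraries from embryos with loxP-flanked p130Cas alleles (p130Casfl/fl) and a CAG-Cre transgene. The control group held 3 libraries from p130Casfl/fl embryos with no Cre in their label, titled WT. Both groups therefore carried the floxed alleles, and no group with unmodified alleles or with Cre alone was analysed here. CAG is a promoter active in nearly all cell types, so deletion was not aimed at one tissue of the shelf. The study asks which transcripts change when p130Cas, an adaptor protein of integrin adhesions, is lost in embryos with a cleft palate. Whether embryos came from separate litters or were pooled is not stated in the labels, and the p-values therefore cover only the spread among these 6 libraries, some of which may be technical.

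TGF-beta ligands are secreted as latent dimers held in the matrix and must be freed before they signal. A freed ligand binds the type II receptor, which activates the type I receptor. The type I kinase then phosphorylates Smad2 and Smad3, which join Smad4 and enter the nucleus, and Smad7 shuts the receptors down. In the palate Tgfb3 is known from the medial edge epithelium, the layer along which the shelves adhere, and mice without it have a cleft palate because the shelves fail to fuse. Loss of Tgfbr2 in the cranial neural crest, or of Tgfb2 in the whole embryo, also gives a cleft palate in mice.

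The depth behind the values is unknown, because FPKM keeps no read counts. Libraries had between 21500 and 21869 genes above 0 and summed to between 384979 and 424993 FPKM. In each library the smallest value above 0 lay between 0.10 and 0.12 FPKM, so a listed 0 may stand for a lower value. The targeted gene Bcar1, which encodes p130Cas, was at 1.69, 1.69 and 1.31 FPKM in KO replicates 1 to 3, against 1.80, 1.97 and 2.09 FPKM in control replicates 1 to 3. The KO values lay below the control values with a log2 difference of -0.21 ± 0.11 (SE), which did not pass (limma, adjusted p = 1.00). The value covers the whole gene and does not measure recombination. Markers listed for palatal mesenchyme were above 0 in all libraries, with Osr2 between 44.6 and 55.2 FPKM and Prrx1 between 100.4 and 152 FPKM, and so were those of epithelium, with Krt14 between 91.9 and 179 FPKM. KO replicate 2 stood apart from the other libraries in sex, with Xist at 61.0 FPKM and Ddx3y at 0, where the other 5 libraries had Xist at 0. It also stood apart in the level of long genes, given below.

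None of the 10 genes passed the test between KO and control. In limma on log2(FPKM + 1), 0 of 10 were called at a Benjamini-Hochberg adjusted p under 0.05, where 0.333% of all tested genes were called, 0.326% as higher and 0.0068% as lower in KO. At an unadjusted p under 0.05 there was 1 of 10, Tgfb1, beside 4.01% of all tested genes. The KO and control values did not overlap for 1 of 10 genes, again Tgfb1, beside 9.06% of all tested genes (5.79% lower and 3.27% higher in KO), so the share among the 10 was near the background. Of the 10 genes 4 lay above 0 and 6 below, with a median log2 difference of -0.03, beside -0.02 over all tested genes. In bulk tissue, fewer cells of a type and less RNA per cell cannot be told apart, here and in all results that follow.

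**Figure D1:**
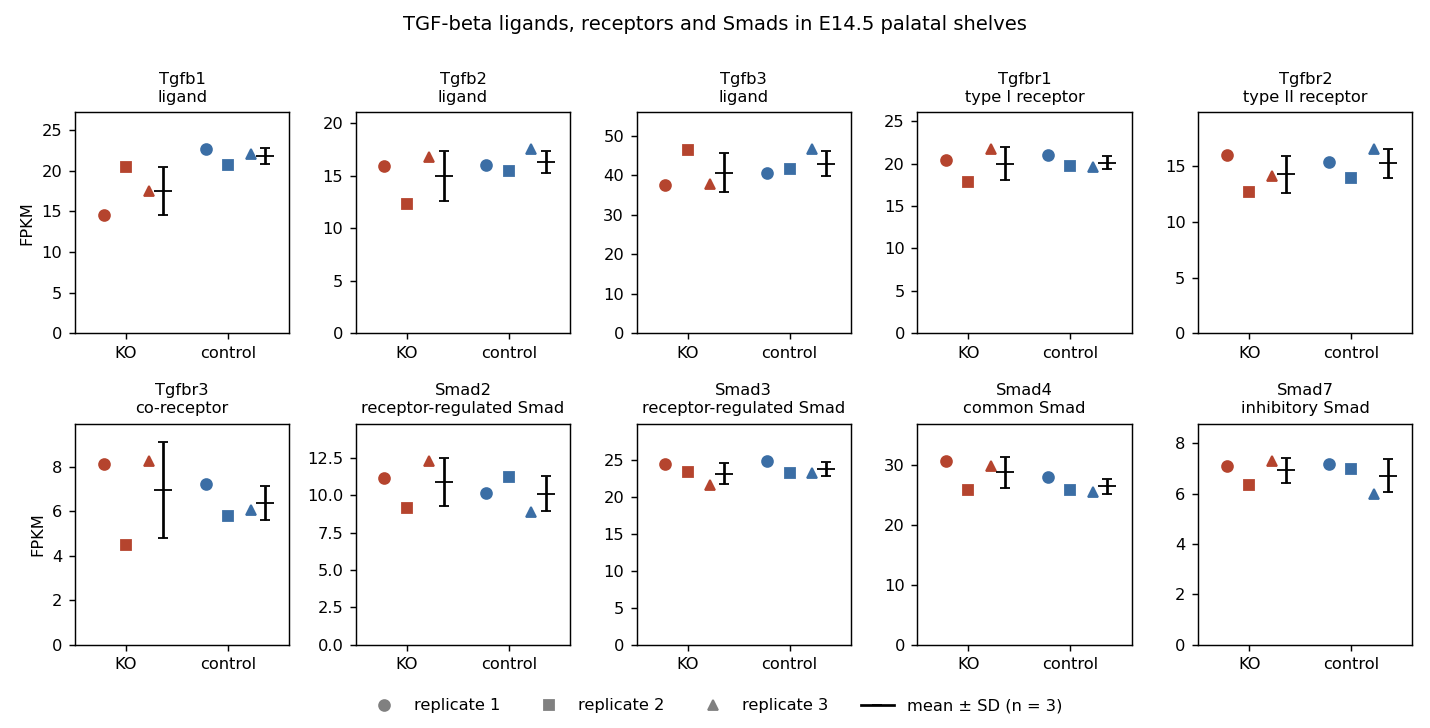
FPKM of the 10 genes (vertical axes, each from 0) in the 3 KO libraries (red, left) and the 3 control libraries (blue, right) of each panel, with replicates 1 to 3 as circle, square and triangle and the mean ± SD in black. The groups overlap in every panel except that of Tgfb1, where the highest KO value, 20.5 FPKM, lies just under the lowest control value, 20.7 FPKM.

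Among the ligands, Tgfb3 was the most abundant, and with a mean of 41.8 FPKM over the 6 libraries it had the highest level of all 10 genes. That level lay at the 89.5th percentile of the tested genes, whose median was 9.25 FPKM. Coordinates here and for the other genes are of GRCm38, and Tgfb3 (ENSMUSG00000021253) occupies the minus strand of chromosome 12 from 86056745 to 86079041. Its level was at 37.7, 46.4 and 37.9 FPKM in KO replicates 1 to 3, against 40.7, 41.7 and 46.6 FPKM in control replicates 1 to 3. KO replicate 2 and control replicate 3 were the highest, at nearly the same level, and the groups overlapped. The log2 difference of KO minus control was -0.08 ± 0.10 (SE), with a 95% interval from -0.31 to 0.14 (limma, adjusted p = 1.00). With 1 library left out it ran between -0.18 without KO replicate 2 (limma, adjusted p = 0.686) and -0.026 without control replicate 3 (limma, adjusted p = 1.00), and it was -0.033 without KO replicate 1 and -0.037 without KO replicate 3.

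Because Tgfb3 in the palate is known from epithelium, its values were set beside the epithelial markers. The summed level of the 18 epithelial markers was 577, 783 and 448 FPKM in KO replicates 1 to 3, against 583, 653 and 522 FPKM in control replicates 1 to 3. The markers were highest in KO replicate 2, where Tgfb3 was also high, but control replicate 3 had the highest Tgfb3 and the lowest marker sum of the controls. None of the 18 markers was called, and 11 lay above 0 and 7 below. Trp63, a transcription factor of basal epithelium, averaged 12.7 ± 1.85 FPKM in KO and 11.8 ± 2.33 FPKM in control shelves (SD, n = 3 each). Cldn7, a tight junction protein, averaged 7.83 ± 3.02 FPKM in KO and 9.002 ± 0.566 FPKM in control shelves. The part of epithelial content in the Tgfb3 values was not tested.

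Tgfb1 (ENSMUSG00000002603; chromosome 7 from 25687002 to 25705077 on the plus strand) is the ligand best known from leukocytes, endothelium and matrix. It was at 14.6, 20.5 and 17.5 FPKM in KO replicates 1 to 3, against 22.7, 20.7 and 22.1 FPKM in control replicates 1 to 3. No KO library reached the lowest control, and the KO mean differed from the control mean by -19.6% on the FPKM scale. The log2 difference was -0.31 ± 0.11 (SE), with a 95% interval from -0.57 to -0.05, and it did not pass (limma, unadjusted p = 0.0264, adjusted p = 1.00). An exact permutation test (two-sided) on the same values had p = 0.1, the lowest value possible with 20 ways to split the 6 libraries. KO replicate 1 set much of the size: without it the difference was -0.19 (limma, adjusted p = 1.00), and without KO replicate 2 it was -0.42 (limma, adjusted p = 0.330).

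Markers of endothelium and of leukocytes, which are known to express Tgfb1, lay on opposite sides of 0. Endothelial markers summed to 191, 155 and 190.1 FPKM in KO replicates 1 to 3, against 194, 202 and 221 FPKM in control replicates 1 to 3. All 13 lay below 0, with a median log2 difference of -0.19, and 0 were called, with 4 at an unadjusted p under 0.05, beside 4.01% of all tested genes, and 5 lower in KO without overlap, beside 5.79% of all tested genes. Egfl7, a secreted endothelial protein, averaged 37.9 ± 1.71 FPKM in KO and 44.6 ± 1.83 FPKM in control shelves, and the tight junction protein Cldn5 averaged 10.8 ± 1.08 FPKM in KO and 14.4 ± 1.93 FPKM in control shelves. Leukocyte markers summed to 133, 162 and 118 FPKM in KO replicates 1 to 3, against 83.6, 91.1 and 104 FPKM in control replicates 1 to 3. Of 13 tested leukocyte markers all lay above 0, with a median of 0.45, and 0 were called, with 11 at an unadjusted p under 0.05, beside 4.01% of all tested genes, and 11 higher in KO without overlap, beside 3.27% of all tested genes. The macrophage lysozyme Lyz2 averaged 15.6 ± 2.51 FPKM in KO and 8.73 ± 1.35 FPKM in control shelves, and the macrophage antigen Adgre1 averaged 3.45 ± 0.412 FPKM in KO and 1.77 ± 0.360 FPKM in control shelves. The part of either cell type in the Tgfb1 values was not tested.

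Tgfb2 (ENSMUSG00000039239; chromosome 1 from 186622792 to 186705989 on the minus strand) is the ligand known from palatal mesenchyme and heart. It was at 15.98, 12.3 and 16.8 FPKM in KO replicates 1 to 3, against 16.02, 15.5 and 17.5 FPKM in control replicates 1 to 3. KO replicate 2 was the lowest library and the other KO values lay inside the control range. The log2 difference was -0.12 ± 0.11 (SE), with a 95% interval from -0.39 to 0.14 (limma, adjusted p = 1.00). It was close to 0 without KO replicate 2, at 0.0035 (limma, adjusted p = 0.990), and -0.20 without KO replicate 3 (limma, adjusted p = 1.00).

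The upstream sequences of Tgfb1 and Tgfb2 are shown because these ligands were near each other in level and their promoters differ in base composition and motifs. Upstream sequences were taken from the RefSeq promoter table of GRCm38.p6 for 5 of the 10 genes (Tgfb1, Tgfb2, Tgfbr1, Tgfbr2 and Smad3). None was taken for Tgfb3, Tgfbr3, Smad2, Smad4 and Smad7, which does not show that the promoter table lacks them. The 250 bases before the start are printed from 5′ to 3′ on the strand of the gene, from chr7:25686752-25687001 on the plus strand for Tgfb1 and from chr1:186705990-186706239 on the minus strand for Tgfb2. Capitals mark the GC box GGGCGG, or its reverse CCGCCC, and the TATA box TATAAA, or its reverse TTTATA.
Tgfb1: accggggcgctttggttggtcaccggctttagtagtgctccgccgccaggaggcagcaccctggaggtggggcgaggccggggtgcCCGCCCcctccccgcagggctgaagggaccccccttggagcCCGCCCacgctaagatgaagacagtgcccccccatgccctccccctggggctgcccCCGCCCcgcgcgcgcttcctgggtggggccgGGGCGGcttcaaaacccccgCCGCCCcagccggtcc
Tgfb2: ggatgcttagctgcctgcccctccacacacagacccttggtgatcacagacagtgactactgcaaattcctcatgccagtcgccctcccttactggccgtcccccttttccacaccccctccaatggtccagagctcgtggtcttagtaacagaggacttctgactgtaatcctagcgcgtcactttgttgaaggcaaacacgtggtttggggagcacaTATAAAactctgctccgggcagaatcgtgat
The Tgfb1 window was 75.2% G and C and held 5 GC boxes and no TATA box. The Tgfb2 window was 53.6% G and C and held no GC box and 1 TATA box, which began 31 bases before the start. Over all 32851 windows of this length the median was 52.4% G and C, 32.7% held a GC box and 12.4% held a TATA box. The marked matches do not overlap, and a match is a description of the letters, not a measured site.

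Setting the ligands side by side within each library gave their composition, since FPKM is per length. Levels still moved with gene length, as given below. In the length class of Tgfb3 the median relative log2 level was -0.05, 0.02 and -0.02 in KO replicates 1 to 3. In that of Tgfb1 and Tgfb2 it was -0.001, -0.05 and 0.03. Control replicates 1 to 3 had -0.02, 0.05 and 0.03 in the class of Tgfb3, and 0.04, -0.003 and -0.02 in the other. The part of gene length in the shares was not tested. Tgfb3 made up 55.2%, 58.6% and 52.5% of the summed ligand FPKM in KO replicates 1 to 3, against 51.3%, 53.6% and 54.1% in control replicates 1 to 3. The mean share of Tgfb3 was 55.4% ± 3.05 in KO and 53.0% ± 1.49 in control shelves (SD, n = 3 each), and the groups overlapped. Tgfb1 made up between 21.4% and 25.8% in KO and between 25.6% and 28.5% in control shelves. Tgfb2 made up between 15.6% and 23.4% in KO and between 19.9% and 20.3% in control shelves, so its share spread more widely among KO libraries, with the low value in KO replicate 2. The ligands summed to 68.3, 79.2 and 72.2 FPKM in KO replicates 1 to 3, against 79.4, 77.9 and 86.2 FPKM in control replicates 1 to 3, and the groups overlapped.

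Neither signalling receptor passed the test. Tgfbr1 (ENSMUSG00000007613; chromosome 4 from 47353222 to 47414931 on the plus strand), the type I receptor kinase, was at 20.4, 17.8 and 21.7 FPKM in KO replicates 1 to 3, against 20.98, 19.8 and 19.6 FPKM in control replicates 1 to 3. Its lowest and highest libraries were both KO, and the difference was -0.01 ± 0.08 (SE), with a 95% interval from -0.20 to 0.18 on the log2 scale (limma, adjusted p = 1.00). Tgfbr2 (ENSMUSG00000032440; chromosome 9 from 116084293 to 116175360 on the minus strand), the ligand-binding type II receptor, was at 16.01, 12.7 and 14.2 FPKM in KO replicates 1 to 3, against 15.4, 13.95 and 16.5 FPKM in control replicates 1 to 3. The groups overlapped, with KO replicate 2 the lowest, and the log2 difference was -0.09 ± 0.10 (SE), with a 95% interval from -0.33 to 0.14 (limma, adjusted p = 1.00). The Tgfbr2 difference was -0.17 without KO replicate 1 and -0.15 without control replicate 2, against -0.017 without KO replicate 2 and -0.039 without control replicate 3. Mean Tgfbr1 was above mean Tgfbr2 in each group, with 19.97 and 14.3 FPKM in KO and 20.1 and 15.3 FPKM in control shelves.

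Tgfbr3 (ENSMUSG00000029287; chromosome 5 from 107106570 to 107289629 on the minus strand) encodes betaglycan, a membrane proteoglycan that presents ligand to the signalling receptors and is known to be needed for high-affinity binding of Tgfb2. By the mean over the 6 libraries it had the lowest level of the 10 genes, 6.67 FPKM against 6.81 FPKM for Smad7, but Smad7 was above it in only 2 of 6 libraries. Its spread on the log2 scale was the widest of the 10. It was at 8.14, 4.47 and 8.29 FPKM in KO replicates 1 to 3, against 7.23, 5.78 and 6.08 FPKM in control replicates 1 to 3. KO replicates 1 and 3 were the highest of all libraries and KO replicate 2 the lowest. The log2 difference was 0.08 ± 0.20 (SE), with a 95% interval from -0.39 to 0.55 (limma, adjusted p = 1.00), and it was 0.33 without KO replicate 2 (limma, adjusted p = 0.686) and -0.053 without KO replicate 3 (limma, adjusted p = 1.00). The SD of Tgfbr3 over the 6 libraries was 0.29 on the log2 scale, at the 93.5th percentile of the tested genes, whose median was 0.12.

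**Figure D2:**
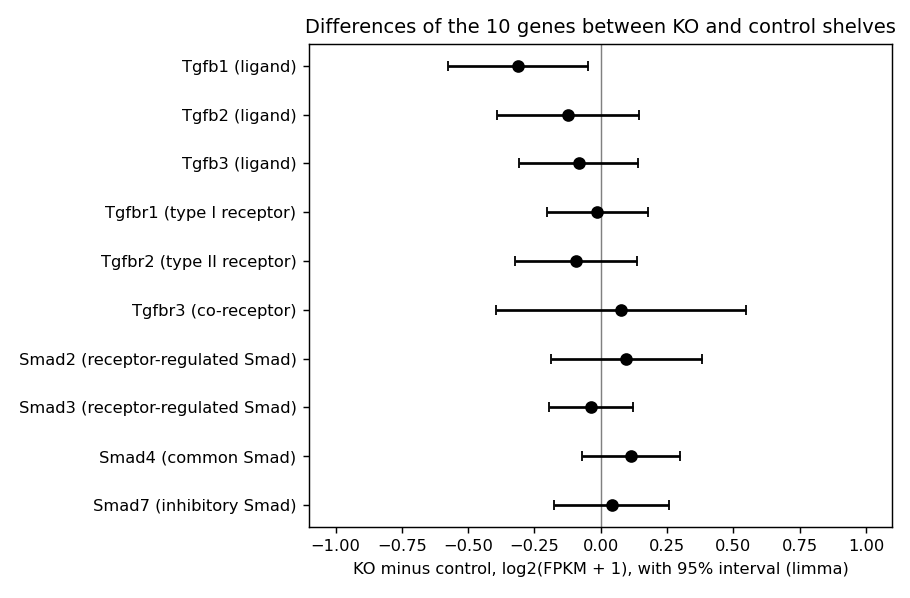
KO minus control on the log2(FPKM + 1) scale (horizontal axis) for the 10 genes, with points for the limma estimate and bars for its 95% interval. The interval of Tgfb1, from -0.57 to -0.05, is the only one that leaves out 0 before adjustment, and that of Tgfbr3, from -0.39 to 0.55, is the widest.

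No Smad passed the test, and all 4 had overlapping groups. Smad4 (ENSMUSG00000024515; chromosome 18 from 73639009 to 73703780 on the minus strand), the partner shared with bone morphogenetic protein signalling, was at 30.7, 25.8 and 29.7 FPKM in KO replicates 1 to 3, against 27.9, 25.9 and 25.5 FPKM in control replicates 1 to 3. KO replicates 1 and 3 lay above all controls and KO replicate 2 lay among them. The log2 difference was 0.12 ± 0.08 (SE), with a 95% interval from -0.07 to 0.30 (limma, adjusted p = 1.00), and it was 0.19 without KO replicate 2 (limma, adjusted p = 0.686) and 0.067 without KO replicate 1 (limma, adjusted p = 1.00). Smad3 (ENSMUSG00000032402; chromosome 9 from 63646767 to 63757994 on the minus strand), a receptor-regulated Smad that binds DNA, was at 24.5, 23.4 and 21.7 FPKM in KO replicates 1 to 3, against 24.97, 23.2 and 23.3 FPKM in control replicates 1 to 3. The groups overlapped, and the SD of Smad3 over the 6 libraries was at the 15.5th percentile of the tested genes. Its log2 difference was -0.04 ± 0.07 (SE), with a 95% interval from -0.20 to 0.12 (limma, adjusted p = 1.00).

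Smad2 (ENSMUSG00000024563; chromosome 18 from 76241580 to 76310963 on the plus strand), the other receptor-regulated Smad of this pathway, was less abundant than Smad3 in each of the 6 libraries. It was at 11.2, 9.14 and 12.3 FPKM in KO replicates 1 to 3, against 10.1, 11.3 and 8.90 FPKM in control replicates 1 to 3. The groups overlapped, with the lowest library a control and the highest a KO, and the log2 difference was 0.10 ± 0.12 (SE), with a 95% interval from -0.19 to 0.38 (limma, adjusted p = 1.00). The Smad2 difference was 0.0086 without KO replicate 3 and 0.017 without control replicate 3, against 0.21 without KO replicate 2 and 0.17 without control replicate 2. Smad7 (ENSMUSG00000025880; chromosome 18 from 75367529 to 75395935 on the plus strand), the inhibitory Smad, is itself induced by TGF-beta and often read as a sign of signalling. It was at 7.09, 6.35 and 7.31 FPKM in KO replicates 1 to 3, against 7.16, 6.99 and 5.96 FPKM in control replicates 1 to 3. The groups overlapped, and the log2 difference was 0.04 ± 0.09 (SE), with a 95% interval from -0.18 to 0.26 (limma, adjusted p = 1.00). Smad7 made up between 9.65% and 10.3% of the summed FPKM of the 4 Smads in KO and between 9.37% and 10.4% in control shelves.

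Ordered by their mean level over the 6 libraries, the genes ran Tgfb3, Smad4, Smad3, Tgfbr1, Tgfb1, Tgfb2, Tgfbr2, Smad2, Smad7 and Tgfbr3. The ranges of Tgfb3 and Smad4, of Smad4 and Smad3, of Smad3 and Tgfbr1, of Tgfbr2 and Smad2, and of Smad2 and Smad7 did not overlap, and in each of these pairs the first was above the second in 6 of 6 libraries. Neighbours with overlapping ranges were Tgfbr1 and Tgfb1, Tgfb1 and Tgfb2, Tgfb2 and Tgfbr2, and Smad7 and Tgfbr3, so their order is within the spread. Tgfb1 was above Tgfb2 in 5 of 6 libraries, the exception being KO replicate 1.

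The genes whose profile over the 6 libraries was most like that of Tgfb3 were Cd82, Ccdc124 and Tceal5. Likeness was the root mean square difference of the centred log2(FPKM + 1) values. It was taken over 12470 tested protein-coding genes that were not members, predicted genes or Rik genes. It was 0.013 for Cd82, a tetraspanin, 0.017 for Ccdc124 and 0.021 for Tceal5, beside a median of 0.16. Cd82 was at 16.9, 20.8 and 17.1 FPKM in KO replicates 1 to 3, against 18.6, 19.1 and 20.9 FPKM in control replicates 1 to 3. With 6 libraries and this many candidates close profiles are easily found, and the likeness is a description only.

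The rest of the pathway was described by 7 lists of genes with a known role. Of their 68 distinct genes outside the 10, 65 were tested and 0 were called in either direction. Only Snai2 had an unadjusted p under 0.05. KO and control values did not overlap for 5 of 65, which is 7.69%, beside 9.06% of all tested genes. The median log2 difference was -0.01, with 30 genes above 0 and 35 below.

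**Figure D3:**
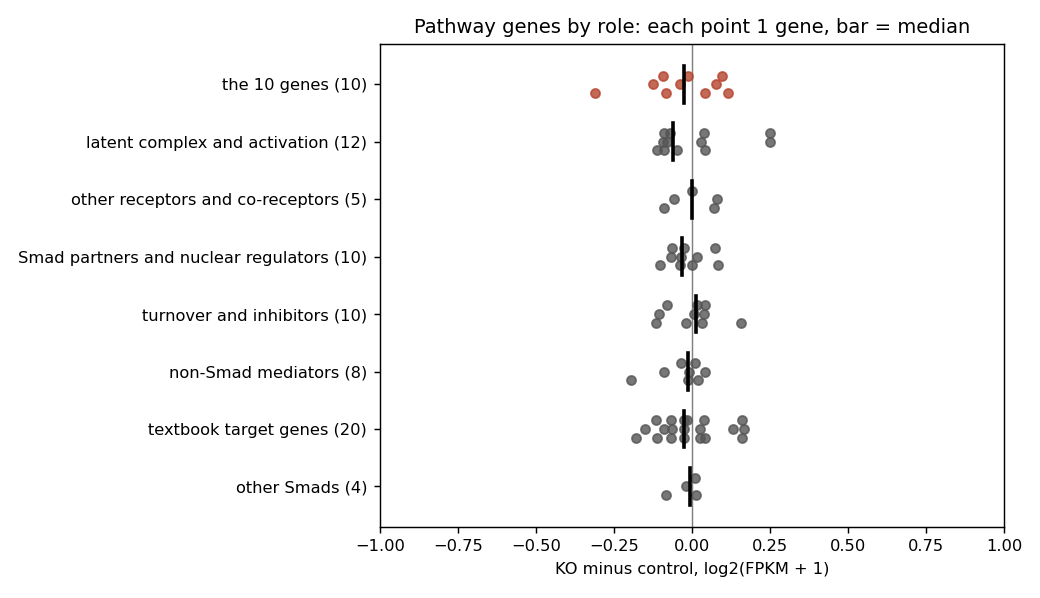
KO minus control on the log2(FPKM + 1) scale (horizontal axis) for each tested gene of the pathway, by role (number tested in brackets), with the 10 genes in red and black bars at the medians. All points of the 7 lists lie between -0.19 and 0.25, and the lowest point in red is Tgfb1, at -0.31.

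Of 12 tested genes for the latent complex and its activation, 5 lay above 0 and 7 below, with a median of -0.06. Nrros, which tethers latent ligand on myeloid cells, averaged 5.16 ± 0.641 FPKM in KO and 4.18 ± 0.647 FPKM in control shelves (SD, n = 3 each), beside the higher leukocyte marker sums of the KO libraries, whose part in it was not tested. Furin, the protease that cuts the ligand precursor, averaged 34.1 ± 2.35 FPKM in KO and 36.4 ± 1.08 FPKM in control shelves. Among the latent binding proteins, Ltbp2 was at 8.19, 2.00 and 4.68 FPKM in KO replicates 1 to 3, against 3.85, 3.57 and 7.93 FPKM in control replicates 1 to 3. It was named after its values were seen, because its highest libraries, KO replicate 1 and control replicate 3, were also those with the most cartilage RNA. The 12 cartilage markers summed to 751, 169 and 148 FPKM in KO replicates 1 to 3, against 344, 301 and 632 FPKM in control replicates 1 to 3. The other libraries did not follow the same order, with Ltbp2 lowest in KO replicate 2 and the cartilage sum lowest in KO replicate 3. The part of cartilage in the Ltbp2 values was not tested. Itgb6, an integrin subunit that frees latent ligand in epithelium, had a mean below 1 FPKM and was not tested.

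The 5 other receptors and co-receptors had a median of 0.00065. Eng, the endothelial co-receptor endoglin, averaged 21.7 ± 3.10 FPKM in KO and 20.4 ± 1.53 FPKM in control shelves, with a log2 difference of 0.08 ± 0.11 (SE), which was 0.00062 without KO replicate 1 and 0.19 without KO replicate 2. Bambi, a decoy receptor without a kinase, averaged 3.74 ± 0.737 FPKM in KO and 4.02 ± 0.342 FPKM in control shelves. Among 10 tested Smad partners and nuclear regulators, 0 were called, and values did not overlap for 2, both lower in KO, beside 5.79% of all tested genes. Tgif2, a corepressor of Smads, averaged 23.8 ± 0.453 FPKM in KO and 25.7 ± 1.13 FPKM in control shelves, and the corepressor Ski averaged 55.8 ± 1.31 FPKM in KO and 58.5 ± 1.45 FPKM in control shelves. Foxh1, a partner of Smad2 in the early embryo, was listed at 0 in all 6 libraries.

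The 10 genes for turnover and inhibition had a median of 0.01. Nedd4l, a ubiquitin ligase that acts on activated Smads, averaged 11.9 ± 0.842 FPKM in KO and 10.6 ± 1.13 FPKM in control shelves. Fkbp1a, which holds the type I receptor inactive, averaged 126.7 ± 5.72 FPKM in KO and 136 ± 8.49 FPKM in control shelves. Smurf1, a ubiquitin ligase recruited by Smad7, averaged 15.3 ± 0.169 FPKM in KO and 14.8 ± 0.310 FPKM in control shelves. It was named after its values were seen, as the 1 of 10 genes of this list (10%) without overlap, near the 9.06% of all tested genes. The 8 non-Smad mediators had a median of -0.01. Traf4, an adaptor that can couple the receptors to other kinases, averaged 30.1 ± 3.62 FPKM in KO and 34.4 ± 0.640 FPKM in control shelves. Tab1, a partner of the kinase Map3k7, averaged 17.9 ± 0.602 FPKM in KO and 19.2 ± 0.882 FPKM in control shelves. Of the 4 other Smads, which serve bone morphogenetic proteins or inhibit them, Smad1 averaged 17.9 ± 0.902 FPKM in KO and 19.1 ± 1.37 FPKM in control shelves, and Smad9 averaged 4.77 ± 0.565 FPKM in KO and 4.86 ± 0.569 FPKM in control shelves.

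Textbook targets of TGF-beta were examined as a readout of the pathway. Of 20 tested targets, 8 lay above 0 and 12 below, with a median of -0.03, and 0 were called. Some of these targets were also counted in other pathway lists above, and all of the shared ones lay below 0. Snai2, a transcription factor of mesenchyme, was at 23.7, 23.6 and 25.8 FPKM in KO replicates 1 to 3, against 22.1, 22.3 and 20.6 FPKM in control replicates 1 to 3. Its KO values lay above its control values, with a log2 difference of 0.16 ± 0.07 (SE; limma, unadjusted p = 0.0427, adjusted p = 1.00). Timp1, an inhibitor of matrix proteases, was at 10.7, 13.0 and 12.5 FPKM in KO replicates 1 to 3, against 13.9, 13.8 and 13.6 FPKM in control replicates 1 to 3. Its KO values lay below its control values, with a log2 difference of -0.18 ± 0.08 (SE; limma, adjusted p = 1.00), which was -0.10 without KO replicate 1. These 2 of 20 targets (10%) had no overlap between the groups, near the 9.06% of all tested genes, so nothing is read from them about the targets. The matricellular protein Ccn2, another target, named after its values were seen, averaged 16.9 ± 2.95 FPKM in KO and 16.5 ± 2.22 FPKM in control shelves.

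**Figure D4:**
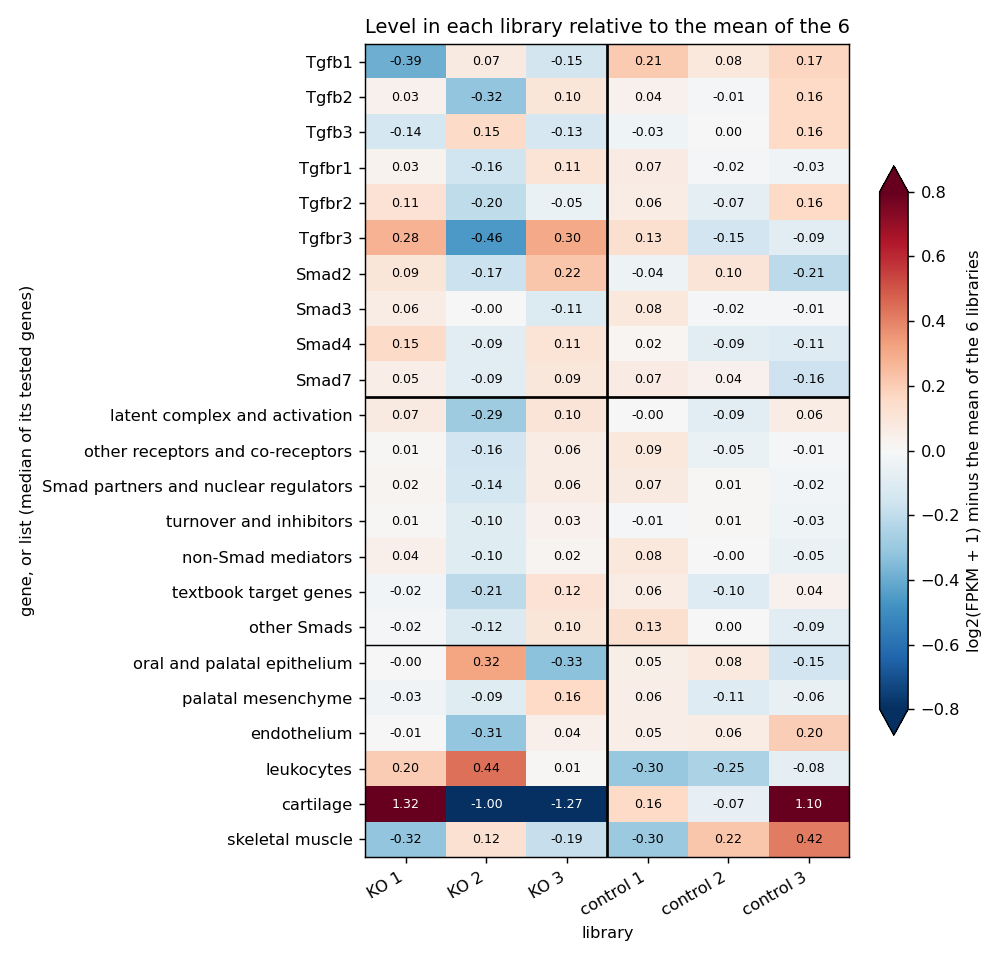
Level in each library minus the mean of the 6 libraries on the log2(FPKM + 1) scale, for the 10 genes (top), the medians of the 7 pathway lists (middle) and the medians of the 6 cell type lists (bottom), with the KO libraries on the left. Colours stop at 0.8 in either direction and the printed values give the rest. KO replicate 2 is the lowest library in all 7 pathway lists, at -0.29 for the latent complex, while cartilage runs from -1.27 in KO replicate 3 to 1.32 in KO replicate 1.

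Libraries of the same group also differed from each other. KO replicate 2 was the lowest of the 6 libraries for 4 of the 10 genes, Tgfb2, Tgfbr1, Tgfbr2 and Tgfbr3, and for 41 of 65 other pathway genes. That is 63.1% of the pathway genes, beside 28.4% of all tested genes. Latent complex genes were lowest there in 8 of 12 cases and Smad partners in 8 of 10. The median of the 10 genes relative to the mean of the 6 libraries was 0.06, -0.12 and 0.10 in KO replicates 1 to 3, against 0.06, -0.01 and -0.02 in control replicates 1 to 3.

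Gene length moved with this pattern. The tested genes were split into 5 equal classes of exonic length. In the longest class, from 7297 bp, the median relative level was 0.04, -0.11 and 0.08 in KO replicates 1 to 3, against 0.07, -0.04 and -0.04 in control replicates 1 to 3. In the shortest class, up to 1988 bp, it was -0.05, 0.07 and -0.05 in KO replicates 1 to 3, against -0.06, 0.06 and 0.03 in control replicates 1 to 3. KO replicate 2 was thus lowest for long genes and highest for short genes, and KO replicates 1 and 3 lay on the other side of 0 in both classes. Of the 10 genes, 7 lay in the longest 2 classes, and Tgfb3, with 3383 bp, lay in the second-shortest. When each class was centred within each library, an alternative added after the data were seen, 0 of the 10 genes were called and Tgfb1 had a log2 difference of -0.30 (limma, adjusted p = 1.00), Tgfb3 of -0.05 and Tgfbr3 of 0.09. The part of RNA quality, of library preparation or of the sex of the embryo in the values of KO replicate 2 was not tested.

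**Figure D5:**
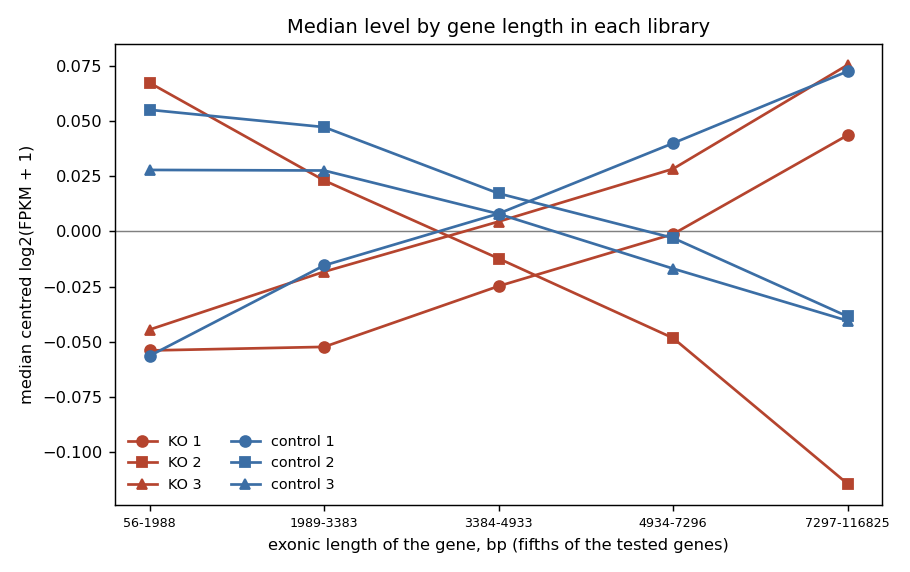
Median of log2(FPKM + 1) minus the mean of the 6 libraries (vertical axis) in 5 classes of exonic gene length (horizontal axis, bp), with 1 line for each KO library (red) and each control library (blue). KO replicate 2 runs from 0.07 in the shortest class to -0.11 in the longest, while KO replicate 3 and control replicate 1 run the other way, to 0.08 and 0.07.

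The summed levels of the remaining marker lists overlapped between the groups. Palatal mesenchyme markers summed to between 646 and 798 FPKM in KO and between 687 and 721 FPKM in control shelves, and 0 of 12 were called. Tbx22, a transcription factor whose loss gives cleft palate, averaged 4.05 ± 0.978 FPKM in KO and 2.77 ± 1.42 FPKM in control shelves, and Meox2, another palatal transcription factor, averaged 19.8 ± 4.79 FPKM in KO and 16.5 ± 1.25 FPKM in control shelves. Of 12 cartilage markers 11 lay below 0 and 0 were called. The cartilage matrix protein Matn1 averaged 17.2 ± 25.6 FPKM in KO and 25.7 ± 13.8 FPKM in control shelves, and Comp averaged 1.36 ± 1.72 FPKM in KO and 3.61 ± 3.28 FPKM in control shelves, so both spread widely within a group. Skeletal muscle markers summed to between 413 and 611 FPKM in KO and between 412 and 725 FPKM in control shelves. All 13 tested muscle markers lay below 0 and 0 were called, and values did not overlap for 1 (7.69%), beside 9.06% of all tested genes. Neb, a thin filament protein, averaged 2.29 ± 0.301 FPKM in KO and 3.13 ± 0.186 FPKM in control shelves. Myh3, the embryonic myosin, averaged 29.1 ± 1.28 FPKM in KO and 34.2 ± 6.27 FPKM in control shelves.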

How the data were processed

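Total RNA of E14.5 palatal shelves was extracted with a Promega ReliaPrep kit, per the labels' protocols. The values deposited by the authors are FPKM, scaled by gene length and library size, 1 column for each of 6 libraries. The submitters' processing notes name mm10 and DESeq2 version 1.5.2. The aligner, how reads were counted, strand handling and the gene annotation were not given in the sources used here. No step of single reads was found among low FPKM, which leaves the depth unknown and allows no counting intervals. Column names were matched to library names in the labels.

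Symbols, positions and exonic lengths came from GENCODE vM21 on GRCm38 (50824 of 55631 IDs matched). Genes whose mean reached 1 FPKM were fitted as log2(FPKM + 1) in limma version 3.58.1 (R version 4.3.3), with genotype as the only term and a trended eBayes. The two-sided p-values were adjusted by Benjamini-Hochberg over 14714 genes, threshold 0.05. Fold changes on this scale understate those of low genes. The text names the 10 genes, Bcar1, up to 2 tested genes of smallest p from each list, and the 3 genes most like Tgfb3. Osr2, Prrx1, Krt14, Xist, Ddx3y, Ltbp2, Smurf1, Ccn2 and the untested Itgb6 and Foxh1 were named outside this rule, after values were seen. Members and lists were chosen with earlier results of these data known.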

Additional observations from a re-analysis of the deposited data

How the results depend on the processing

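The counts of 0 called among the 10 genes and 0 among the other pathway genes held under all alternatives run: pseudocounts of 0.1 and 0.01, no filter or filters at 0.1 and 5 FPKM, quantile, median-of-ratios and TPM scaling, eBayes without trend or robust, library weights, centring by gene length, the replicate block, and each library left out in turn. Over all genes 49 were called, and the alternatives ran from 24 with the filter at 5 FPKM to 69 with no filter and 69 as TPM. The log2 difference of Tgfb1 kept its sign, from -0.42 to -0.19, with its lowest adjusted p of 0.196 under library weights. The mean Tgfb3 share of ligand FPKM ranged from 53.9% to 56.9% in KO and from 52.4% to 53.8% in control shelves.

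Of 190 recomputed values for the 10 genes 14 changed sign, and of 505 for other named genes 8 did, none of them called, and the cause was not tested. Over the fits that each left out 1 library, the log2 differences of the genes that changed sign ran from -0.20 to 0.0035 for Tgfb2, from -0.072 to 0.062 for Tgfbr1, from -0.053 to 0.33 for Tgfbr3, from -0.076 to 0.0084 for Smad3, from -0.031 to 0.094 for Smad7, from -0.19 to 0.035 for Bambi, from -0.099 to 0.057 for Smad9, from -0.46 to 0.066 for Cldn7 and from -0.041 to 0.23 for Trp63. Among the other alternatives, Tgfbr1 was 0.0068 with quantile normalization, 0.0063 with median-of-ratios scaling, 0.018 as TPM, 0.034 with library weights and 0.00098 after centring by length. With library weights Tgfbr2 was 0.033, Smad3 0.013 and Smad9 0.0041, and as TPM Smad9 was 0.0065.

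The deviations of libraries with the same replicate number in their titles correlated at 0.019, 0.31 and -0.24. For libraries of different number the values ran from -0.28 to 0.31. With 3 libraries a group these values cannot show or exclude a pairing. With the replicate block 42 genes were called in all, with 0 of the 10 and 0 of the other pathway genes, and the log2 difference of Tgfb1 was -0.31. The depth behind the FPKM is unknown, and the 95% intervals show the precision that 3 libraries a group gave.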
